A study of Homo sapiens with 6 samples.

Results

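The TRIM family was followed across 6 one-colour oligonucleotide arrays of human total RNA from lung adenocarcinoma cells. The lines CL1-0 and CL1-5 share CL1 as their parent and are labelled poorly and highly invasive, respectively. RNA of 3 biological repeats was taken from each line, grown in RPMI medium with fetal bovine serum and given no agent. Either group is a single established line, so the comparison is between these lines and not between invasive and non-invasive tumours in general. Members were the probe sets with exactly 1 gene symbol in the platform annotation, of the form TRIM and a number, with or without a letter. This rule took 130 of 54675 probe sets, which stand for 56 of 19775 named genes. Of the 130 probe sets 95 passed a filter on dim signals, and 47 of the 56 genes could be tested, each through 1 probe set. The other 9 genes had no probe set above the filter and are described at the end.

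TRIM proteins carry a RING finger, B-box zinc fingers and a coiled coil in that order, and most are ubiquitin ligases. The C-terminal end differs between members and sets much of what each protein binds. A PRY-SPRY domain is the usual one and is found in many members that act against viruses, PHD and bromodomains read chromatin, NHL repeats bind RNA or protein partners, and the COS box attaches to microtubules. Some members lack the RING, so that the name ubiquitin ligase does not hold for all: TRIM14, TRIM16, TRIM29, TRIM44 and TRIM66 are of this kind. Many members are induced by interferon and act in the sensing of viral RNA and DNA, among them TRIM25, which attaches ubiquitin chains to the RNA sensor RIG-I.

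The arrays of each line resembled one another more than those of the other line, with Pearson correlations across genes of 0.989 to 0.996 within lines and 0.856 to 0.866 between them. Genes are not independent replicates in these correlations. A second principal component, holding 4.42% of the variance, separated the arrays numbered 3, in either line, from the rest. Array medians were 30.2 to 30.9, and the small number of arrays limits precision. Of 5 epithelial markers KRT8, KRT18 and CDH1 exceeded the 40th percentile of the array on all 6, EPCAM on the 3 of CL1-0 alone and KRT19 on none. Their summed signal was 175.0 to 181.4 in CL1-0 and 4437 to 5258 in CL1-5, mostly KRT18, and its part in the results was not tested. Of the leukocyte markers PTPRC and CD14 exceeded it on no array, and CD3E and CD79A on all 6. Of the endothelial markers CDH5 and KDR exceeded it on none, PECAM1 on all 6 and VWF on 2 of each line. NKX2-1, NAPSA and SFTPB of the lung lineage exceeded it on all 6, with sums of 198 to 252 in CL1-0 and 152 to 183 in CL1-5. Sums take the brightest probe set of each gene. For KRT8, KRT18, NKX2-1, SFTPB, the fibroblast genes COL1A1 and DCN and the muscle gene MYH7 it is of a type that can cross-hybridise. Through the tested probe sets the log2 fold changes were -0.08 for NKX2-1, -0.27 for NAPSA and 0.05 for SFTPB, none called. The leukocyte sums were 95.9 to 132 and 103 to 116. Fibroblast sums were 228 to 274 and 241 to 256, mostly COL1A1, and endothelial sums 79.4 to 95.8 and 157 to 171, mostly PECAM1. In bulk RNA, fewer cells with a transcript and less of it per cell cannot be told apart.

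Setting CL1-5 against CL1-0 asks which members differ between these lines of common descent, labelled highly and poorly invasive. Of the 47 tested genes 18 were higher and 7 lower in CL1-5 at an adjusted p under 0.05, from limma fitted to all 14828 tested genes with Benjamini-Hochberg adjustment. That was 53.2% of the members in either direction, 38.3% higher and 14.9% lower. Over all genes 51.6% passed, 23.3% higher and 28.3% lower. With array weights 19 members were higher and 12 lower, beside 30.8% and 38.6% of all genes, the added calls being TRIM31 higher and TRIM16L, TRIM28, TRIM47, TRIM61 and TRIM66 lower. At a change of at least 2-fold as well, 10 TRIM genes were higher and 2 lower, 21.3% and 4.26%, beside 8.51% and 7.60% over all genes. The median log2 fold change was 0.13 over the 47 genes and -0.03 over all genes. The arrays of the lines did not overlap for 28 TRIM genes, 59.6%, beside 58.8% over all genes, with CL1-5 above for 20 (42.6%, beside 26.6%) and CL1-0 above for 8 (17.0%, beside 32.2%). Fold changes are those of CL1-5 over CL1-0 after adding 6.85 to each signal and taking log2, a scale on which the change of a dim gene comes out too small. Each rests on n = 3 arrays of either line.

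**Figure D1:**
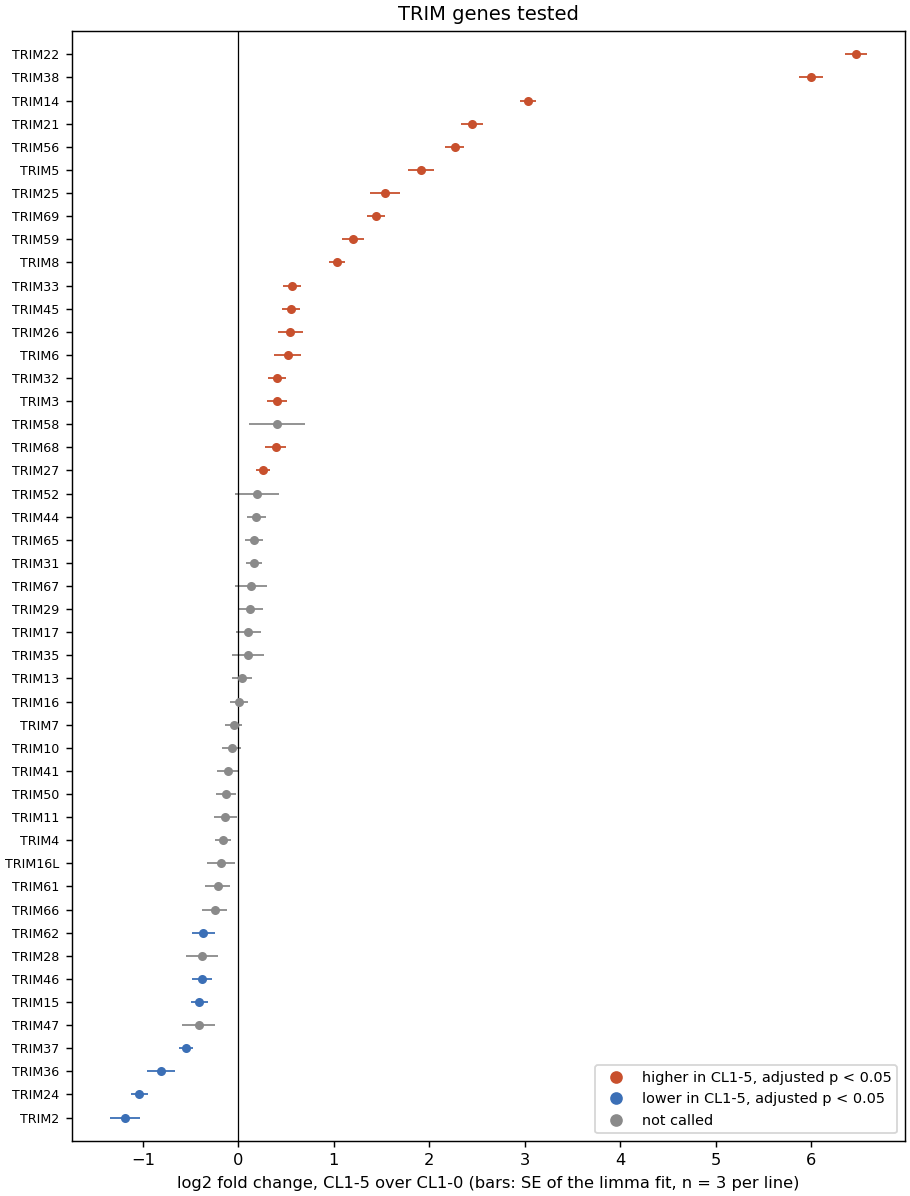
Log2 fold change of CL1-5 over CL1-0 for the 47 tested TRIM genes, with the standard error of the fit as bars (n = 3 arrays per line) and colour for the call. TRIM22 and TRIM38, whose CL1-0 signals through these probe sets were under the 40th percentile, so that their plotted values are no measured sizes, lie near 6, a further 8 genes lie between 1 and 3.1, and the lowest value is -1.19 for TRIM2.

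Of the 10 increases of at least 2-fold, 8 were in members linked to interferon. Of a list of 10 interferon-linked TRIM genes 9 were tested, TRIM34 having no probe set of its own symbol alone, and all 9 were higher in CL1-5, with a median log2 fold change of 2.27. Of the 38 tested genes outside this list 9 were higher and 7 lower, with a median of 0.02. The list was drawn up with earlier results of these data known, so its count describes these genes and is no independent evidence of their direction. TRIM22 and TRIM38 also enter these counts and the median through probe sets that passed the filter by their CL1-5 arrays alone. Those probe sets had to differ in order to be tested. By the end of the protein, 11 of 25 tested genes on a PRY-SPRY list were higher and 2 lower (median 0.17). That is a chosen list and not every gene with the domain. It leaves out TRIM16L, not called, and the COS-box genes TRIM36 and TRIM46, both lower, and TRIM67, not called. Of 9 with other ends 4 were higher and 1 lower (median 0.20). These counts overlap with the interferon-linked list: all its tested genes but TRIM56 are among the 11, and TRIM56 is among the 4. Over all genes 23.3% were higher and 28.3% lower. Of the 5 genes named above as lacking a RING only TRIM14 was called, and TRIM16L was not on that list.

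TRIM22, an interferon-induced ligase that restricts several viruses, gave signals of 5.59, 6.68 and 7.94 on the CL1-0 arrays and 1066, 1222 and 1297 on the CL1-5 arrays. TRIM38, a ligase that tunes signalling from the sensors of viral nucleic acid, gave 14.3, 12.7 and 10.9 in CL1-0 and 1156, 1139 and 1426 in CL1-5. Through these probe sets every CL1-0 array lay under the 40th percentile of its probe sets, a signal of about 20 that stands in for background here, and every CL1-5 array lay far over it. TRIM22, which had no other member probe set, was at least 44.7-fold higher (adjusted p = 1.1e-09). It passed the filter through its CL1-5 arrays alone, so it had to differ in order to be tested.

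TRIM38 could also be read through 3 further probe sets, and its size depended on which was used. The probe set above gave at least 46.3-fold (adjusted p = 2.0e-09) and another of the same kind at least 37.1-fold, each a bound for that probe set and not for the gene. A probe set above the 40th percentile on all 6 arrays read 25.9, 27.6 and 20.4 in CL1-0 and 641, 528 and 671 in CL1-5, a log2 fold change of 4.30 (SE 0.14). The fourth, of a type that can cross-hybridise, read 58.9, 43.4 and 55.1 and 159, 155 and 195, with 1.58 (SE 0.14). Both probe sets with a bound passed the filter through their CL1-5 arrays alone, so they had to differ in order to be tested. In all 4 the CL1-5 arrays stood above the CL1-0 arrays, but only the other probe sets could have gone either way.

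TRIM14, an adaptor at mitochondria that works with the RIG-I partner MAVS and has no RING, read 246, 246 and 216 in CL1-0 and 1993, 1988 and 1947 in CL1-5. Its log2 fold change was 3.03 (SE 0.08, adjusted p = 9.9e-09), or 8.16-fold. TRIM21, the cytosolic receptor for antibody-coated viruses, read 91.3, 70.6 and 76.5 in CL1-0 and 440.0, 488 and 459 in CL1-5, a log2 fold change of 2.45 (SE 0.11, adjusted p = 2.5e-07). TRIM56, a ligase linked to responses to foreign DNA and RNA, read 77.5, 80.8 and 78.1 in CL1-0 and 371, 403 and 445 in CL1-5, with 2.27 (SE 0.10, adjusted p = 1.9e-07). In each of the 3 the CL1-0 arrays were close together and well under every CL1-5 array.

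TRIM5, which binds the capsid of incoming retroviruses, read 71.9, 62.4 and 85.0 in CL1-0 and 256, 290.3 and 334 in CL1-5, a log2 difference of 1.91 (SE 0.14, adjusted p = 5.1e-06). TRIM25, the RIG-I ligase, read 505, 495 and 609 in CL1-0 and 1443, 1307 and 1996 in CL1-5, with 1.53 (SE 0.16, adjusted p = 4.5e-05). Repeat 3 was the highest array of its line for both genes, in CL1-0 as in CL1-5, and the lines still did not overlap. TRIM69, an interferon-induced protein that associates with microtubules, read 207, 197 and 179 in CL1-0 and 535, 571 and 506 in CL1-5, with 1.44 (SE 0.09, adjusted p = 2.7e-06).

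The smallest change of the list was that of TRIM26, a ligase of the MHC class I region, with signals of 266, 325 and 345 in CL1-0 and 396, 469 and 509 in CL1-5. Its log2 fold change was 0.54 (SE 0.13, adjusted p = 0.0069), and the lowest CL1-5 array stood above the highest CL1-0 array. All 9 stayed at an adjusted p under 0.05 in every alternative run, although TRIM26 does not reach a 2-fold change.

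**Figure D2:**
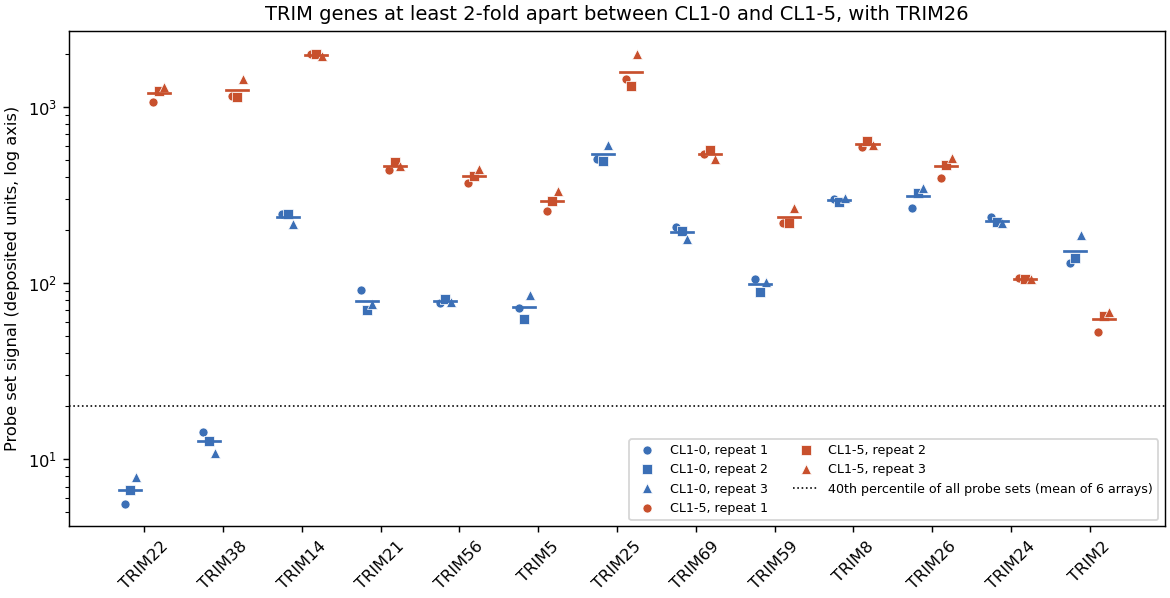
Signal of each array (log axis, deposited units) for the 12 called TRIM genes at least 2-fold apart, with TRIM26, ordered by log2 fold change. Bars are the means of 3 arrays and the dotted line is the 40th percentile of all probe sets, above which no CL1-0 array of TRIM22 or of the TRIM38 probe set shown lies.

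The promoters were searched for motifs of interferon response because so many genes of that list were higher. RefSeq promoters of GRCh38.p14, from 250 bases before to 50 bases after the gene's start, were at hand for 43 of the 56 genes. The core of the interferon-stimulated response element was searched on both strands as GAAA, any 2 bases and GAAA again. That pattern was present in 5 of the 8 promoters from the interferon-linked list (62.5%) and in 3 of 35 from other members (8.57%), beside 996 of all 27305 promoters (3.65%). The 3 others were TRIM2, which fell, and TRIM16 and TRIM44, which were not called. TRIM22, also on the list, had no promoter at hand. Among members at least 2-fold higher, on the list or not, the core was present in 4 of 8 promoters. The list was drawn up with earlier results of these data known, so its contrast with other members is no independent evidence. Whether interferon caused the changes was not tested. A longer form that ends in GAAACT was found in 1 member, TRIM26 (2.33%), and in 74 of all promoters (0.271%). The core of the gamma-activated site, TTCNNNGAA on both strands with N any base, was found in 5 of the 43 promoters (11.6%), none of them on the interferon-linked list, and in 7.88% of all. A match describes these letters and shows no binding.

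The matches of 4 interferon-linked genes lay before the start, and that of TRIM21 just after it. They are printed 5′ to 3′ on the gene's strand, the bases of each match to the doubled GAAA, or to its reverse complement with TTTC, in capitals. The stretches end at the base before the start for TRIM5, TRIM14 and TRIM69, run from 250 to 151 bases before it for TRIM26, and cover bases 15 to 38 after it for TRIM21. The last 100 bases before the start of TRIM38, which was higher through all 4 of its probe sets with no match in its promoter window, stand beside them. Positions are chr11:5685075-5685174 (minus strand) for TRIM5, chr9:98119223-98119322 (minus) for TRIM14, chr15:44736428-44736527 (plus) for TRIM69, chr6:30213557-30213656 (minus) for TRIM26, chr11:4393665-4393688 (minus) for TRIM21 and chr6:25962702-25962801 (plus) for TRIM38.
TRIM5: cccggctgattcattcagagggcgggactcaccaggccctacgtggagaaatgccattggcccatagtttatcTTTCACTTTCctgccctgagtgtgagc
TRIM14: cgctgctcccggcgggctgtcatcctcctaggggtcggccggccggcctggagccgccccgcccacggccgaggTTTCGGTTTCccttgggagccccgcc
TRIM69: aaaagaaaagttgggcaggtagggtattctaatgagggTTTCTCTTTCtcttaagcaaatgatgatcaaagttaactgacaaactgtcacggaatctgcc
TRIM26: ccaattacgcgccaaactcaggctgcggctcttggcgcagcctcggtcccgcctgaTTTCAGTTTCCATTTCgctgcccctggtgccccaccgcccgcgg
TRIM21: gcgGAAACTGAAAGTGAAAtaggg
TRIM38: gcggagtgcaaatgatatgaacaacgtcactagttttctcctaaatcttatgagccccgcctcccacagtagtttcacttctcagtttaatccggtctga

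In TRIM21 and TRIM26 a pair of matches overlapped to form 16 consecutive bases of capitals, while the other 3 promoters held a single match of 10 bases. A match and a large change did not always go together. TRIM26, with its overlapping pair, had a log2 fold change of 0.54, and TRIM56 and TRIM25, with no match in the window, had 2.27 and 1.53.

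Of the 9 increases outside the interferon-linked list, 2 were at least 2-fold. TRIM59, a RING protein held in membranes, read 105, 88.3 and 101 in CL1-0 and 218, 219.6 and 268 in CL1-5, a log2 fold change of 1.20 (SE 0.12, adjusted p = 3.4e-05). TRIM8, a regulator of cytokine and NF-kappaB signalling, read 298, 288 and 301 in CL1-0 and 593, 635 and 608 in CL1-5, with 1.03 (SE 0.08, adjusted p = 7.1e-06). The arrays of each line were close together for TRIM8, yet its 5 probe sets past the filter disagreed in size. Besides this one, 2 were higher by 0.98 and 0.37, and 2 were not called, at 0.21 and -0.26.

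The other 7 increases were under 2-fold. They were TRIM45, with a filamin-type end, at 0.55, the unanchored-chain ligase TRIM6 at 0.51, TRIM68 at 0.39, the RET finger protein TRIM27 at 0.26, the chromatin factor TRIM33 at 0.56, and TRIM32 and TRIM3 of the NHL group. Their lines did not overlap. TRIM27 was no longer called when CL1-0 repeat 2 was left out (adjusted p = 0.058) or CL1-5 repeat 1 (0.061) or 2 (0.073). The calls of TRIM6 (0.064) and TRIM68 (0.055) were lost without CL1-0 repeat 2.

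The chromatin members, with a PHD finger and a bromodomain, moved in both directions: 1 of 4 was higher, 1 lower and 2 not called. TRIM24, a coactivator of nuclear receptors and a ligase for p53, read 235, 221 and 219 in CL1-0 and 107, 105 and 106 in CL1-5, a log2 fold change of -1.04 (SE 0.09, adjusted p = 1.3e-05). Both of its probe sets past the filter are of the type that the array's design marks as able to cross-hybridise. With no filter a dim probe set stood for the gene instead, at 0.0043. TRIM33, which binds SMAD proteins, read 350.0, 321 and 299 in CL1-0 and 509.8, 485 and 448 in CL1-5, with 0.56 (SE 0.10, adjusted p = 0.0010). TRIM66 read 61.2, 45.4 and 48.7 in CL1-0 and 46.7, 36.5 and 43.9 in CL1-5, so that its lines overlapped, and was not called (-0.25, adjusted p = 0.15).

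TRIM28, or KAP1, the corepressor that KRAB zinc finger proteins bring to transposable elements, read 717, 879 and 959.7 in CL1-0 and 520.2, 654 and 803 in CL1-5. The lines overlapped, and the unpaired fit did not call the difference (-0.38, 95% interval -0.75 to -0.0033 before adjustment, adjusted p = 0.086). In both lines repeat 1 was lowest and repeat 3 highest, and within each repeat number CL1-5 was lower, by log2 differences of -0.46, -0.42 and -0.26. With the repeat number as a block in limma the adjusted p was 1.1e-04, and without the arrays of repeat 3 it was 0.0081. The genes known to work with TRIM28 in silencing were, of 10 tested, 7 lower and 2 higher, with a median of -0.34. Over all genes 28.3% were lower and 23.3% higher. The largest decreases were those of the histone deacetylase HDAC2 (-1.13, SE 0.10), the heterochromatin protein genes CBX5 (-0.91, SE 0.16) and CBX3 (-0.50, SE 0.07), and the histone methyltransferase SETDB1 (-0.43, SE 0.11). Another CBX5 probe set went the other way, at 1.12, and SETDB1 was not called when CL1-5 repeat 2 was left out (adjusted p = 0.051). The 2 higher genes were HDAC1 (0.27, SE 0.07) and CBX1 (0.25, SE 0.08). Of the SMAD partners of TRIM33, SMAD3 was higher (3.24, SE 0.12), SMAD2 lower (-0.76, SE 0.08) and SMAD4 lower (-0.30, adjusted p = 0.028), the last not without CL1-0 repeat 1 (adjusted p = 0.092) or any 1 CL1-5 repeat (0.058 to 0.076).

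The block also changed the call of 3 further members. TRIM47, a PRY-SPRY ligase, read 187, 204 and 219 in CL1-0 and 117, 144 and 199.9 in CL1-5, with -0.42 and an adjusted p of 0.077 unpaired and 0.0029 paired. TRIM58, known from red cell maturation, read 53.1, 68.7 and 103 in CL1-0 and 70.5, 84.7 and 155 in CL1-5, with 0.40 and 0.30 unpaired and 0.0035 paired. TRIM44, which has no RING, read 496, 539 and 432 in CL1-0 and 554, 575 and 537 in CL1-5, with 0.19 and 0.15 unpaired and 0.025 paired. TRIM47 was also called with array medians set equal, with array weights, and without CL1-5 repeat 3. In each of the 3 genes the lines overlapped, and all 3 repeat numbers differed in one direction. With the block 20 TRIM genes were higher and 9 lower.

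**Figure D3:**
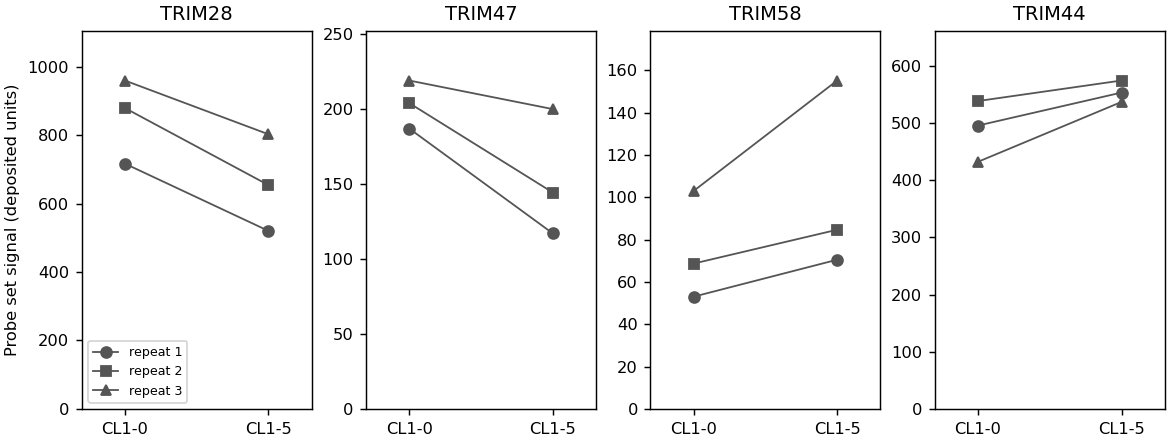
Signal (deposited units, linear axis from 0) of TRIM28, TRIM47, TRIM58 and TRIM44 in CL1-0 and CL1-5, with a line joining arrays of the same repeat number. The joining lines all fall for TRIM28 and TRIM47 and rise for TRIM58 and TRIM44, while the ranges of the cell lines overlap.

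All 3 tested members with NHL repeats differed, in both directions. TRIM2, a ligase of neurofilament light chain, read 129, 139 and 187 in CL1-0 and 52.7, 65.3 and 68.6 in CL1-5, a log2 fold change of -1.19 (SE 0.16, adjusted p = 2.1e-04), the lowest of the family. Its CL1-0 arrays spread more than those of CL1-5, and all stood above every CL1-5 array. TRIM32, mutated in a limb-girdle muscular dystrophy, read 244, 223 and 243 in CL1-0 and 299.8, 308 and 341 in CL1-5, with 0.41 (SE 0.09, adjusted p = 0.0053). TRIM3, which binds a kinesin motor protein, was dimmer, at 26.4, 32.3 and 32.5 in CL1-0 and 38.4, 43.3 and 45.6 in CL1-5, with 0.40 (SE 0.11, adjusted p = 0.012). Its other 2 probe sets past the filter were at 0.06 and -0.08, neither called.

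The other decreases were under 2-fold. TRIM36, a microtubule-binding member, read 119, 108 and 119 in CL1-0 and 53.0, 57.3 and 79.9 in CL1-5, with -0.81 (SE 0.15, adjusted p = 0.0014). TRIM37, the ligase mutated in mulibrey nanism, read 1220.3, 1221 and 1165 in CL1-0 and 809, 826 and 825 in CL1-5, with -0.55 (SE 0.07, adjusted p = 1.8e-04). Its other probe set past the filter read -1.20. Of 3 tested COS-box genes, TRIM36 and TRIM46, the latter known from the axon initial segment, were lower and TRIM67 was not called. TRIM46 (-0.38, adjusted p = 0.017) was not called without CL1-0 repeat 2 (adjusted p = 0.055) or 3 (0.053) or CL1-5 repeat 3 (0.0504). TRIM15, known from focal adhesions, was lower (-0.41, adjusted p = 0.0048). Its other passing probe set read 0.09 and was not called, and with the mean of both the call was lost (adjusted p = 0.11). Also lower was TRIM62 (-0.37, adjusted p = 0.032). The TRIM62 call was lost without any 1 array other than CL1-5 repeat 3, with adjusted p from 0.054 to 0.11.

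The other 18 tested members were not called with or without the block, with log2 fold changes between -0.25 for TRIM66 and 0.20 for TRIM52. They include the tripartite ligases TRIM4, TRIM7, TRIM11 and TRIM41, and TRIM16, TRIM29 and TRIM65. The lines did not overlap for TRIM4, TRIM31 and TRIM65, at -0.16, 0.16 and 0.17. A missed threshold does not show equal levels: for TRIM16 (0.01) the 95% interval ran from -0.21 to 0.22, for TRIM7 (-0.05) from -0.25 to 0.15 and for TRIM52 (0.20) from -0.33 to 0.73.

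Where several probe sets of a gene passed the filter, they could be set against each other. Of 28 such genes, 8 had all their probe sets called in one direction, 12 some, 8 none, and none had calls in opposite directions. In 34 of 95 TRIM probe sets CL1-5 was called higher and in 13 lower, 35.8% and 13.7%, beside 21.2% and 25.6% of all probe sets tested on their own. At least 2-fold apart were 18 higher and 5 lower, beside 8.19% and 7.32% of all. All 4 probe sets of TRIM38 were higher, 2 of which passed the filter by their CL1-5 arrays alone. The passing probe sets of TRIM14 were all higher too, from 0.79 to 3.03. TRIM56 and TRIM25 were each higher through a further probe set, at 1.02 and 1.16, and TRIM27 through 2 more, at 0.41 and 1.02. TRIM69 rested on 1 probe set, the other that passed reading 0.17. For TRIM2, 2 other probe sets were lower, at -1.30 and -1.01, and 1 was not called (-0.22), while for TRIM36 the other 2 were not called (-0.21 and 0.01). In 3 genes whose main probe set was not called, another one was. TRIM13, a ligase anchored in the endoplasmic reticulum, was higher through one (0.94, adjusted p = 0.0020) and at 0.04 through the main one. TRIM16L was lower through one (-0.84, adjusted p = 3.4e-04) and at -0.18 through the main one, and TRIM58 was higher through its dimmer one (0.66, adjusted p = 0.0018).

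**Figure D4:**
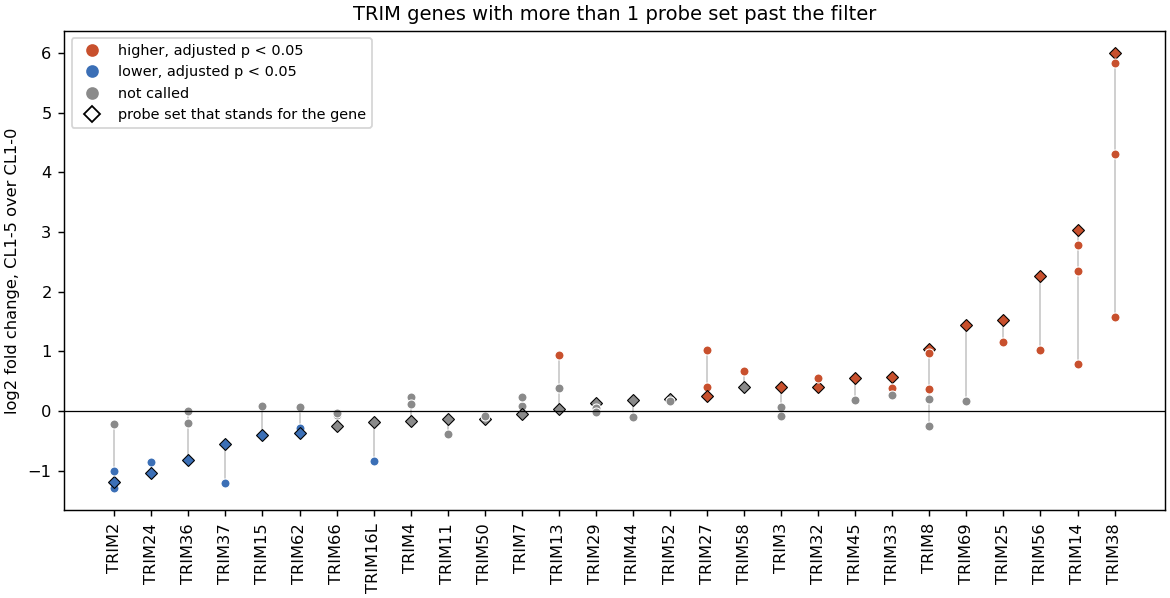
Log2 fold change of every probe set past the filter for the 28 TRIM genes with more than 1, coloured by the call of that probe set, the diamond marking the one that stands for the gene. The measured probe sets of TRIM38 are at 1.58 and 4.30, and its other 2, with CL1-0 under the 40th percentile, are plotted near 6. Those of TRIM14 run from 0.79 to 3.03, and no gene has both an upward and a downward call.

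Several members lie near each other on a chromosome, which the family rule did not use. On chromosome 11 the tested members TRIM21, TRIM68, TRIM5, TRIM6, TRIM22 and TRIM3 follow one another in that order, and all 6 were higher. The log2 fold changes were 2.45 for TRIM21, 0.39 for TRIM68, 1.91 for TRIM5, 0.51 for TRIM6 and 0.40 for TRIM3, while TRIM22 has only the bound of 44.7-fold. Between TRIM21 and TRIM3 lie 72 protein-coding genes that the family rule did not take, of which 10 were tested, 1 was higher and 0 were lower. A TRIM gene with no probe set of its own symbol alone, as TRIM34, is not kept out of such a count. On chromosome 6 TRIM31, TRIM40, TRIM10, TRIM15 and TRIM26 follow one another with no other coding gene between them, and of the 4 tested TRIM26 was higher, TRIM15 lower and TRIM31 and TRIM10 not called. These stretches were chosen after the values were seen. Different probe sets cannot be compared in level, only in change.

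**Figure D5:**
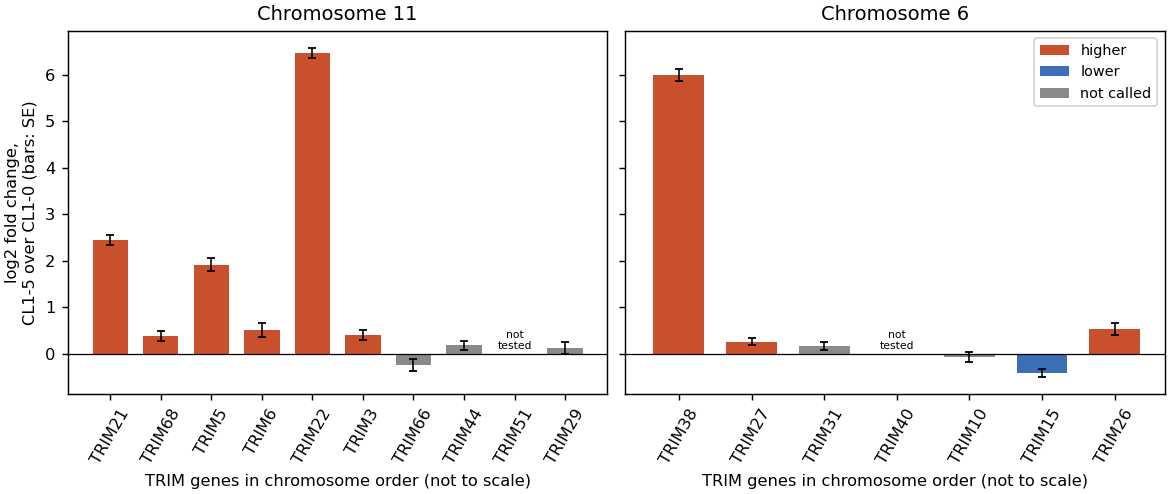
Log2 fold change of CL1-5 over CL1-0, with standard errors of the fit, for the TRIM genes of chromosomes 11 and 6 in chromosome order, not to scale. The first 6 genes of chromosome 11 are all higher, the plotted value of TRIM22 resting on CL1-0 signals under the 40th percentile, whereas TRIM15 and TRIM26 on chromosome 6 are called in opposite directions.

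Of 5 tested close relatives with other symbols, 3 were higher and 1 lower, beside 23.3% and 28.3% of all genes. MID1, the microtubule-bound ligase of the Opitz syndrome, read 852, 829 and 886 in CL1-0 and 15.9, 19.3 and 18.2 in CL1-5, where every array was under the 40th percentile, and was at least 32.2-fold lower through this probe set (adjusted p = 1.4e-09). The probe set passed the filter through its CL1-0 arrays alone, so it had to differ in order to be tested. Its paralogue MID2 read 32.9, 21.9 and 44.5 in CL1-0 and 101, 104 and 93.8 in CL1-5, a log2 fold change of 1.45 (SE 0.19, adjusted p = 2.0e-04). PML, the scaffold of nuclear bodies, rose by 2.30 (SE 0.20, adjusted p = 1.7e-05) and TRIML2 by 1.83 (SE 0.21, adjusted p = 9.7e-05), while MEFV was not called (0.03, adjusted p = 0.82).

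The pathways in which these ligases act were read through lists of partner genes. Over all genes 23.3% were higher and 28.3% lower. Of 16 RIG-I pathway genes, all tested, 9 were higher and 3 lower, with a median of 0.40. The sensors RIGI (4.16, SE 0.11) and IFIH1 (4.35, SE 0.09), the transcription factor IRF7 (5.46, SE 0.09) and the DNA-sensing adaptor STING1 (3.07, SE 0.19) rose. The adaptor MAVS (-0.13, adjusted p = 0.23), the kinase TBK1 (-0.05, adjusted p = 0.77) and IRF3 (0.05, adjusted p = 0.70) were not called, nor was TAB1. The 3 lower genes, TAB2 (-1.08, SE 0.10), IKBKG (-0.69, SE 0.10) and MAP3K7 (-0.59, SE 0.10), serve the TAK1 and IKK kinase complexes. Of 10 tested genes of interferon signalling 7 were higher and 0 lower, with a median of 0.70, among them the feedback inhibitor SOCS1 (at least 15.4-fold, through a probe set that passed by its CL1-5 arrays alone), IRF9 (2.90, SE 0.09), IRF1 (2.71, SE 0.10) and the kinase JAK1 (1.02, SE 0.08). Both subunits of the type I interferon receptor, IFNAR1 (-0.18, adjusted p = 0.20) and IFNAR2 (-0.43, adjusted p = 0.16), were not called.

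Of 8 tested ubiquitin-conjugating enzymes, which hand ubiquitin to ligases, 1 was higher and 3 lower, beside 23.3% and 28.3% of all genes. Their median was -0.13. The increase was that of UBE2L6 (4.08, SE 0.18), the enzyme that also conjugates ISG15, with signals of 281, 219 and 164 in CL1-0 and 4288, 3874 and 3178 in CL1-5. UBE2K fell by 0.41 (SE 0.07, adjusted p = 0.0016). UBE2N, which builds the lysine-63-linked chains used in RIG-I signalling, was lower (-0.28, adjusted p = 0.031), as was UBE2E1 (-0.30, adjusted p = 0.025), and neither call held in every leave-one-out fit. UBE2N lost it without CL1-0 repeat 2 or 3 or CL1-5 repeat 1 or 3 (adjusted p up to 0.11), and UBE2E1 without CL1-0 repeat 2 or CL1-5 repeat 1 (up to 0.087).

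The 9 members that were not tested were TRIM9, TRIM40, TRIM42, TRIM51, TRIM54, TRIM55, TRIM63, TRIM71 and TRIM72. TRIM54, TRIM55, TRIM63 and TRIM72 are known from striated muscle, TRIM9 from neurons and TRIM71 from early development. None of the 13 probe sets of these 9 TRIM genes exceeded the 40th percentile on more than 1 array. TRIM9 gave 12.5, 8.53 and 9.95 in CL1-0 and 15.6, 20.8 and 17.7 in CL1-5 through one probe set, and 7.02, 7.05 and 6.67 and 12.0, 10.8 and 9.75 through the other, with CL1-5 above CL1-0 in both and 1 of 12 readings over the percentile. At such signals no fold is given. The muscle markers ACTN2 and DES exceeded the percentile on all 6 arrays and MYH7 on 1, with sums of 125 to 136 in CL1-0 and 120.1 to 134 in CL1-5.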

How the data were processed

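Total RNA of CL1-0 and CL1-5 was hybridised to 3 arrays per line, with line and repeat number read from the sample titles. The values deposited are linear intensity per probe set. Only MAS5 is named, per the submitters' processing notes, with no version, and what else was done is not given in the sources used here; no detection calls were used. Names came from the platform annotation, and all 130 TRIM probe sets were matched by gene identifier to RefSeq GRCh38.p14. Of 54675 probe sets, 41091 carried 1 symbol, 1801 several, 11721 none, and 62 were controls. Those with several were left unnamed, so TRIM34 and TRIM39 are not analysed here.

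The 10th percentile of all values, 6.85, was added before log2. A probe set passed if it exceeded its array's 40th percentile on 3 or more of the 6 arrays. A gene was read through its passing probe set of highest mean log2 value, leaving out the cross-hybridising type (suffix x) where possible. limma 3.58.1 under R 4.3.3 (lmFit, then eBayes with trend) compared the lines over 14828 genes, with Benjamini-Hochberg adjustment. A line with no array over the 40th percentile gives only a bound on the fold, for which that percentile, or the measured value if higher, replaced its signal. The labels call the repeats biological without naming separate cultures, and p-values measure only the spread between them.

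Deviations of same-numbered arrays from their line means correlated across genes at 0.475, 0.280 and 0.649 for repeats 1, 2 and 3, each over 0.1. Arrays with one number were treated as pairs only in the alternative fit with a block and in the differences within repeat numbers. The labels do not say what a number shares, and the unblocked fit is the one reported. The members, lists and tests were chosen with earlier results of these data known. The genes named are every member, every listed relative and at most 4 called genes with the largest change per other list. Further partners were added after their values were seen. In data simulated for CL1-5 against CL1-0, 200 of 14828 genes were changed, with noise independent between arrays. The procedure found 38% of changes of size 0.5 on the log2 scale, 78% of size 1, 98% of size 2 and 100% of size 4. Of its 160 calls 3 were false. In the data 51.6% of genes were called and same-numbered arrays deviated together, so these rates hold for the simulated setting only. Alternatives covered the constant, filter, scaling, prior trend, array weights, choice of probe set, replicate block, a 2-fold threshold and leaving out single arrays. Omitting repeat 3 of both lines was added after seeing the data.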

Additional observations from a re-analysis of the deposited data

How the results depend on the processing

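Of the 25 called members, all 9 on the interferon-linked list stayed at an adjusted p under 0.05 in every alternative run, and no called member changed direction except TRIM24, at 0.0043 with no filter, where a dimmer probe set stood for it. Calling also for a 2-fold change left 10 higher and 2 lower members, and array weights gave 19 higher and 12 lower. Leaving out 1 array at a time gave 15 to 18 higher and 5 to 8 lower members. With the repeat number as a replicate block the counts were 20 and 9, and without repeat 3 of both lines 18 and 8. With the mean of all passing probe sets, TRIM3, TRIM15 and TRIM62 were not called.

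Among uncalled genes, signs turned as follows, with log2 fold changes of CL1-5 over CL1-0. TRIM16, at 0.01 as reported, was -0.016 after quantile normalization, -0.025 with medians set equal, -0.041 with array weights and -0.052 without repeat 3. Array weights gave -0.027 for TRIM29 and -0.28 for TRIM67, and no filter gave -0.21 for TRIM65 through a probe set under the 40th percentile on every array, where it was called lower (limma adjusted p = 0.025). TRIM7 was 0.23 when every passing probe set was tested and 0.086 with their mean, and TRIM4 was 0.10 with the mean. TRIM10 was 0.019 without repeat 3. Leaving out single arrays gave ranges of -0.065 to 0.36 for TRIM52, -0.014 to 0.12 for TRIM13, -0.036 to 0.042 for TRIM16, -0.015 to 0.24 for TRIM17, -0.13 to 0.0047 for TRIM10, -0.037 to 0.24 for TRIM35, -0.0021 to 0.27 for TRIM67 and -0.011 to 0.11 for MEFV. Of the genes on the other lists, CBX5 read 1.12 through another probe set. The causes were not tested. Signals near the 40th percentile, as for TRIM3 and the 9 untested members, limit what 3 arrays per line can show.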
